A study of Drosophila melanogaster with 4 samples.

Results

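The Groucho binding sites of the X chromosome of Drosophila melanogaster are described here, chosen as all peaks of the deposited list whose sequence name is X. There were 1397 of them among the 11165 peaks of the whole list. The assay was ChIP-seq, in which DNA bound by a protein is pulled down with an antibody and sequenced, on white prepupae, animals at the start of metamorphosis. There are 2 ChIP libraries and 2 libraries of input DNA, the unselected chromatin. All came from the strain Y cn bw sp. Its first chromosome, the X itself, carries the alleles y[1] and oc[R3.2]. The second carries Gr22d[1], bw[1], Gr22b[1], sp[1], CG33964[R4.2] and cn[1], and the third Rh6[1], MstProx[1], lab[R4.2], GstD5[1] and LysC[1]. Sex, dissected tissue and hours of age are not given in the labels, and the protocol starts from weighed bulk material, so peaks of different tissues cannot be told apart. The antibody was a rabbit polyclonal serum raised against a peptide of Groucho.

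The processed data are 1 list, in which each peak has its coordinates and a score from MACS, with no value per library. No spread between replicates can therefore be given, read depth is unknown, and every comparison below describes this list without a test. The score is that of the authors' caller, of unstated scale, and serves only to rank and describe peaks within the list. Coordinates are on FlyBase release 5. No annotation or sequence of that release was used here, so sites are named by position, no gene is assigned to them and no sequence is shown.

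Groucho is a co-repressor of the Groucho/TLE family that does not bind DNA itself. DNA-binding repressors such as Hairy, the Enhancer of split proteins, Brinker and Runt recruit it, and it works in part through histone deacetylation. Genes for some of its partners, Brinker and Runt, lie on X. So do genes long studied for repression that involves Groucho, such as achaete and scute of the proneural gene complex and the sex-determination gene Sex-lethal. The X also carries broad, an early gene of the response to ecdysone, the steroid that starts metamorphosis. Males carry a single X, on which transcription is raised by dosage compensation.

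Peaks on X were mostly narrow and of low score, with a small set of high or wide ones. Scores ran from 5.91 to 319.51, with a median of 19.85 and quartiles of 12.63 and 41.25. Widths ran from 201 bp to 4649 bp, with a median of 440 bp and quartiles of 301 bp and 680 bp. Together the peaks covered 828 kb, or 3.72% of the 22.3 Mb up to the end of the last peak. The 140 peaks of highest score held 37.9% of the summed score. That share depends on the unstated scale.

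Against the large autosome arms 2L, 2R, 3L and 3R, X had the highest median score and the lowest maximum. The autosomal medians lay between 18.01 and 18.73 and the autosomal maxima between 370.51 and 614.92. A maximum depends on the number of peaks, 1397 on X and 1948 to 2880 on the autosome arms, which was not taken into account. The upper quartile of the score on X, 41.25, also lay above the autosomal range of 35.49 to 38.09. The share of peaks scoring above 100 did not stand outside the range, with 7.23% on X (101 peaks) and 5.97% to 7.48% on the autosome arms. X peaks made up 12.5% of the whole list. They made up 13.8% of its 1000 highest scores, 12% of its 500 highest and 7% of its 100 highest, and 0 of its 10 highest.

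The strongest site of X was a pair of peaks in 1 short stretch. The peak at X:7199638-7202280 scored 319.51, rank 22 in the whole list, and was 2643 bp wide. Its neighbour at X:7193632-7197230 scored 287.91 and was 3599 bp wide. The 2407 bp between them held 2 small peaks, with scores of 17.3 and 25.77. Within 25 kb of the centre of the strongest peak lay 13 peaks covering 11584 bp, of which only these 2 scored above 100. The next peak towards the centromere, at X:7211241-7211689, scored 30.48. The group ended 29.1 kb after the strongest peak, where a peak-free stretch of 193 kb began at position 7231357. The plot of scores around this site shows a high pair standing on a floor of small peaks.

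**Figure D1:**
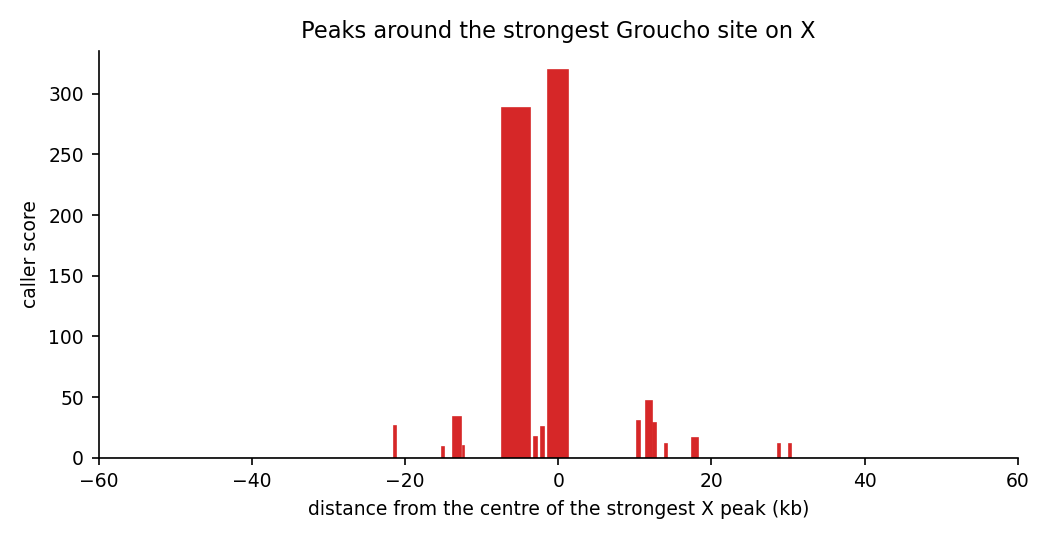
Caller score (vertical axis, linear, from 0) of every peak within 60 kb of the centre of the strongest X peak (horizontal axis, distance in kb). Each bar is 1 peak, drawn to its width, and 15 peaks are shown; the 2 high bars score 319.51 and 287.91 and no other bar exceeds 46.81.

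The third-highest peak, at X:3724317-3725434, scored 282.43 at a width of only 1118 bp. It opened a compact chain of 6 peaks that covered 74.2% of 5.48 kb, and the third peak of that chain, at X:3726742-3727798, scored 208.94. The other 4 peaks of the chain scored between 10.25 and 27.88. Strong and weak calls lay side by side within a few kilobases here too.

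The peaks of rank 4 and rank 8 on X lay 19049 bp apart. The first, at X:2211289-2212934, scored 259.91. The other, at X:2189291-2192239, scored 231.87 and was 2949 bp wide. It belonged to a chain of 9 peaks at X:2186399-2202049, of which 4 scored above 100 and which covered 77.5% of its 15.7 kb. Besides 231.87, those 4 scores were 198.16, 121.25 and 118.42. The other 5 peaks of the chain scored between 10.82 and 84.29.

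The remaining 5 of the 10 highest X peaks differed in their surroundings. The peak at X:15705578-15706659 scored 251.05 and had a single neighbour less than 5 kb away, with a score of 35.95. The peak at X:16453209-16454011 scored 232.73, was the narrowest of the 10 at 803 bp, and had no other peak less than 5341 bp away. The peak at X:5649020-5650402 scored 220.75 and was likewise alone, with 7649 bp to the nearest peak. By contrast, the peak at X:5914038-5916922 scored 237.06 within a chain of 16 peaks. The peak at X:19046965-19049337 scored 230.15 within a chain of 9. Over all 10, the number of other peak centres within 10 kb ran from 1 to 8, and the higher of the 2 adjacent peaks scored 17.3 to 118.42.

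The widest sites of X were mostly high in score, though most were not among the 10 highest. Of the 10 widest peaks, 3 were also among the 10 highest, out of 1397 X peaks. Scores above 100 were held by 8 of the 10 widest (80%), against 7.23% of all X peaks. Their median score was 157.9, against 19.85 over all X peaks. The widest, at X:2539661-2544309, spanned 4649 bp with a score of 117.01, and the peaks at X:18163849-18168348 (4500 bp) and X:2028299-2032790 (4492 bp) scored 159.83 and 155.97. The peak at X:6669054-6672968 was 3915 bp wide with a score of 98.56, and that at X:1505020-1507975 was 2956 bp wide with a score of only 49.95. The peaks at X:18430673-18434458 (3786 bp) and X:6235823-6239149 (3327 bp) scored 169.42 and 143.85.

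Peaks wider than 2 kb numbered 35 on X, or 2.51% of its peaks, against 2.01% to 3.22% on the autosome arms. Of these 35 peaks, 24 scored above 100 and 11 did not, the lowest at 31.37. High scores did not require great width. Of the 101 X peaks above 100, 39 were narrower than 1 kb, and the peak at X:13213580-13214088 scored 178.68 over 509 bp. High peaks were nevertheless wider than most. The median width of the 101 was 1197 bp, against 440 bp over all X peaks. Ranked by width, peaks narrower than 1 kb began at rank 168 of 1397 and so were the large majority on X. Across the 1397 peaks score and width rose together (Spearman's rho = 0.748, against 0.766 to 0.801 on the autosome arms), and both come from the same caller and reads. From the narrowest to the widest 25% of X peaks the median score was 11.12, 16.95, 24.95 and 54.78. At the smallest width in the list, 201 bp, stood 31 X peaks, or 2.22%, against 1.33% to 1.74% on the autosome arms, and none of these 31 scored above 19.11.

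**Figure D2:**
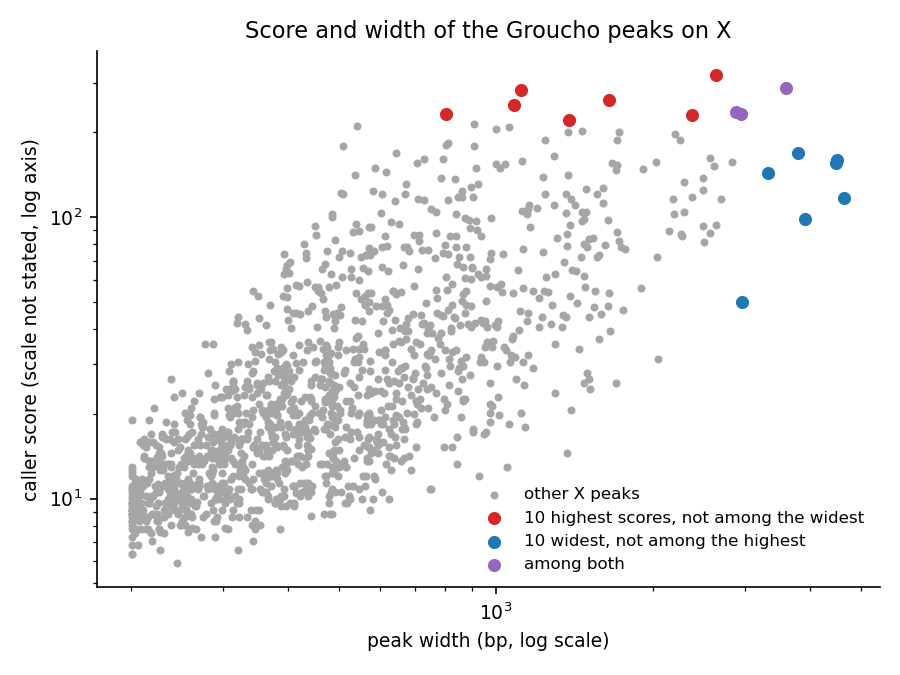
Caller score against width of the 1397 X peaks, both on log axes; each point is 1 peak, and colour marks the 10 highest and the 10 widest. The 10 highest and the 10 widest share 3 peaks, and 8 of the 10 widest score above 100. The points at 201 bp form the left edge.

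Neighbouring X peaks lay at gaps that spread over several orders of magnitude. From the end of a peak to the start of the next, the median gap was 3643 bp, the quartiles were 771 bp and 13863 bp, and the range was 53 bp to 363 kb. On the autosome arms the median gap was 2202 to 2818 bp. The distance from centre to next centre had a median of 4230 bp on X and 2958 to 3484 bp on the autosome arms. Gaps under 1 kb made up 28.9% of the gaps on X, below the 31.4% to 35.0% of the autosome arms. The lower quartile of 771 bp on X compares with 610 to 692 bp. The arms differed more at longer gaps: the upper quartile of 13863 bp on X compares with 7720 to 10653 bp. None of these gap values takes the lower peak density of X into account. In the plot of gap sizes the curves of all 5 arms start together, and that of X is below the others at 1 kb and at 5 kb.

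**Figure D3:**
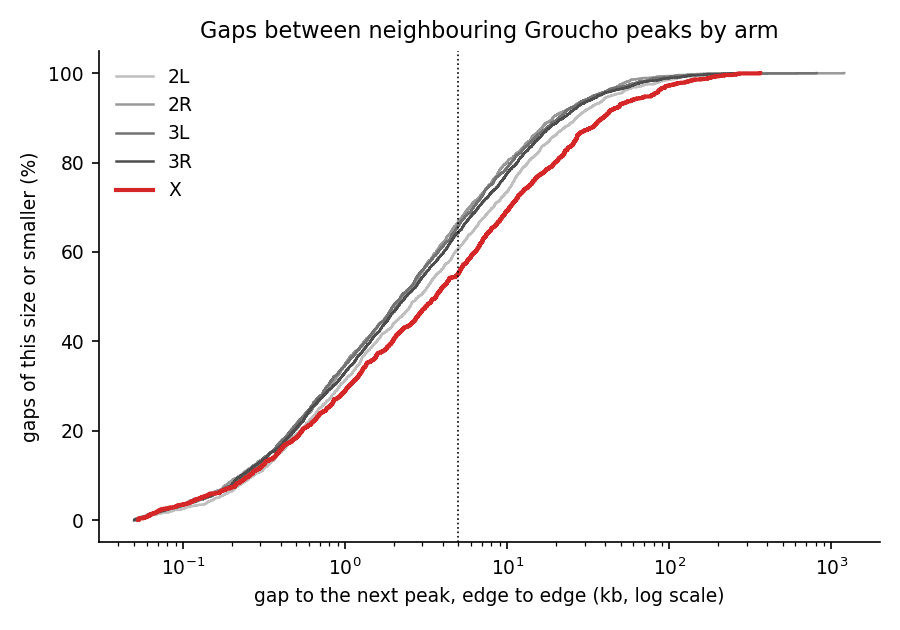
Share of gaps (%, vertical axis) at or below each size (kb, log axis) between neighbouring peaks on X (red) and on 2L, 2R, 3L and 3R (greys); the dotted line is the 5 kb limit used for chains. At that line X reaches 55.1% and the autosome arms 60.7% to 66.7%.

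Chains were formed from consecutive peaks less than 5 kb apart. The 1397 peaks fell into 628 chains, of which 327 were single peaks and 144 were pairs. A further 94 chains held 3 or 4 peaks, 54 held 5 to 9, and 9 held 10 or more. The 9 long chains contained 123 peaks, or 8.80% of the X peaks, in 222 kb of the chromosome. The autosome arms had 17.9% to 22.1% of their peaks in chains of that size. Their largest chains held 37 to 58 peaks each, against 21 on X. Fewer long chains form where peaks are sparser, which these shares do not take into account. X had 62.8 peaks per Mb, against 86.9 to 110 on the autosome arms.

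The largest chain on X ran from 18133429 to 18176927, with 21 peaks that covered 41.3% of 43.5 kb. It held 3 peaks above 100, with scores of 187.54, 159.83 and 181.09, spread from its middle to its very end, and 3 peaks wider than 2 kb. The chain at X:3566134-3591205 was more compact and more evenly strong, with 17 peaks in 25.1 kb, a median score of 54.78 and 3 scores above 100. The chain at X:5892020-5926289 had 16 peaks in 34.3 kb and 1 dominant score, 237.06, the next being 75.61.

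The most tightly packed of the long chains was that at X:1502263-1521960, with 14 peaks covering 52.7% of 19.7 kb, and yet its highest score was 89.4 and its median 16.09. At X:13123294-13145845, 12 peaks covered only 20.7% of 22.6 kb and none scored above 27.45. The chain at X:5779578-5802377, also of 12 peaks, had 1 score of 154.44 and a next-highest of 46.81. The last 3 chains were at X:7586403-7604257 (11 peaks, highest score 154.44), X:12554097-12571370 (10 peaks, 103.92) and X:20924984-20944437 (10 peaks, 65.48). In score the long chains were unlike: 3 of the 9 held no score above 100, and 3 held 3 such scores each. Over all X peaks 7.23% scored above 100, a share at which chains of 10 to 21 peaks may hold few or none. Whether the chains differ beyond that was not tested.

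**Figure D4:**
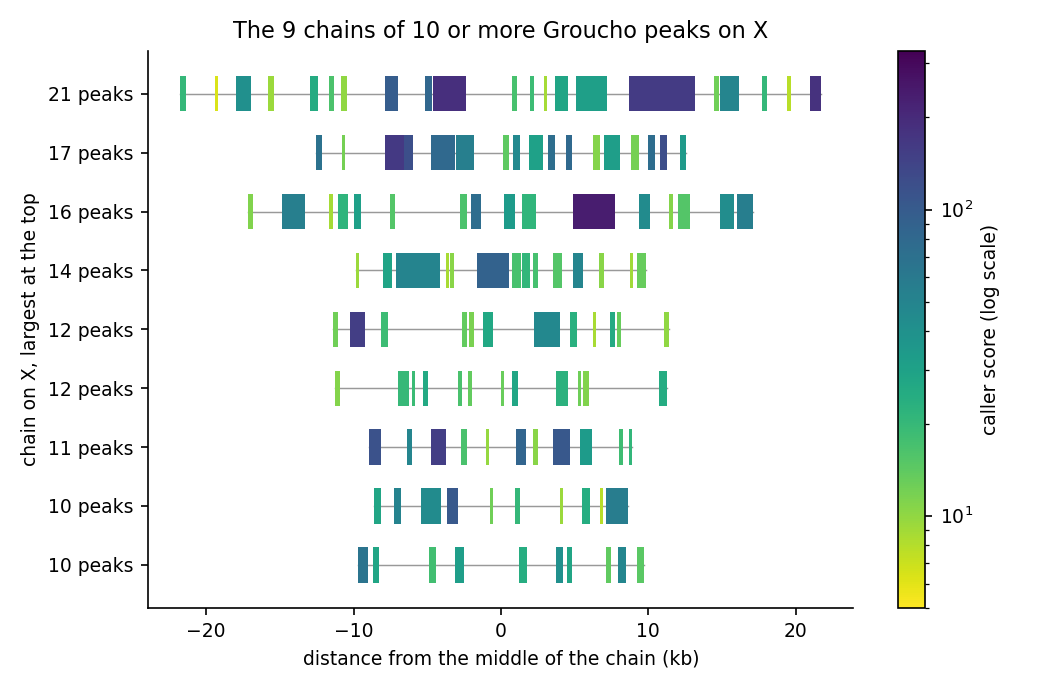
The 9 X chains of 10 or more peaks, drawn to scale around their own middle (kb); each box is 1 peak at its width and colour is the caller score on a log scale. The top chain has 21 peaks over 43.5 kb, and the second of the 12-peak chains is pale throughout, with no score above 27.45.

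Most strong peaks lay outside the long chains, as did most X peaks. The 9 long chains, with 8.80% of the X peaks, held 12 of the 101 X peaks above 100. That was 9.76% of the chains' own peaks, against 7.23% over all X peaks. The long chains also held 1 of the 10 highest and 3 of the 10 widest peaks. In chains of 5 to 9 peaks the share above 100 was 10.3%, in chains of 3 or 4 it was 4.72%, in pairs 5.21%, and among single peaks 7.34%. The median score was 18.73 for single peaks, 20.23 in chains of 5 to 9 and 22.94 in the long chains. Among the 63 chains of 5 or more peaks, the highest median score, 137.91, belonged to a short chain of 5 peaks at X:3634692-3645064, with 4 scores above 100. That chain was picked after its values were seen.

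Peaks with no other peak less than 10 kb away numbered 173 on X, or 12.4%, against 5.76% to 9.70% on the autosome arms. These shares do not take the lower peak density of X into account. The 173 peaks had a median score of 17.3 and a median width of 387 bp, against 20.23 and 456 bp for the other 1224 X peaks. Of the 173, 7 (4.05%) scored above 100, against 7.68% of the other X peaks. The highest of the 173, at X:16110615-16111854, scored 188.35 with the nearest peak 10401 bp away. The second, at X:1169042-1171873, scored 157.51 and was 2832 bp wide, and the third, at X:16227301-16227915, scored 144.6 and lay 24.6 kb from any other. Peaks with 8 or more other centres within 10 kb, 81 in all, had a median score of 25.36, and 12.3% of them scored above 100. The score of a peak and that of the next peak along X were nearly uncorrelated (Spearman's rho = 0.05 over 1396 adjacent pairs, 0.016 to 0.068 on the autosome arms).

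In fixed windows of 50 kb, X held at most 17 peaks, against 23 to 31 in the densest window of each autosome arm. The lower peak density of X was not taken into account here either. The windows 18150001 to 18200000 and 3550001 to 3600000 held 17 each, and covered 33.3% and 23.3% of their length. Their median scores were 31.37 and 54.78. The window 1500001 to 1550000 held 16 peaks with a median score of 14.25, and 2150001 to 2200000 and 13100001 to 13150000 held 14 each. The window from 2150001 contained a score of 231.87, whereas that from 13100001 had none above 27.45. The list of 10 went on with 1950001 to 2000000 (13 peaks), 18400001 to 18450000 and 5750001 to 5800000 (12 each), 5900001 to 5950000 and 7950001 to 8000000 (11 each). The last of these had the highest median score of the 10, 62.04. In all, 9 windows of X held 11 peaks, and the bases covered decided which of them were listed. The 10 windows made up 2.24% of the 446 windows and held 9.81% of the X peaks. At the other end, 130 windows (29.1%) held no peak and 55 held 1.

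Long stretches of X had no called peak. There were 39 gaps over 100 kb, which together made up 6.57 Mb or 29.5% of the length. On the autosome arms 15 to 32 such gaps per arm took up 15.2% to 20.8%. These values do not take the lower peak density of X into account. The longest gap of each autosome arm was 298 to 1200 kb, a range that also holds the longest of X. The longest on X, at 21494936 to 21858020, was 363 kb. It was followed by 20628370 to 20898776 (270 kb), 14112949 to 14375353 (262 kb), 19791922 to 20052952 (261 kb) and 15729132 to 15985522 (256 kb). The next 5 were 202 to 245 kb long and began at 4988724, 22036183, 12147581, 20944438 and 4602018. Beyond 20 Mb, towards the centromere, lay 7 of the 39 gaps and 4 of the 10 longest. The first peak of X began at 234236, so the 234 kb before it were peak-free as well. These are stretches in which no peak was called, and neither depth nor mappability is known.

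The 78 peaks that bordered these gaps had a median score of 18.38, against 19.85 over all X peaks. Of them 3 (3.85%) scored above 100, against 7.23% over all X peaks. The gaps cut X into islands. Of the 38 islands between successive gaps, 5 were shorter than 50 kb, for example 11 peaks at X:20898777-20944437 between gaps of 270 kb and 208 kb. The largest, from 18133429 to 19791921, ran for 1658 kb with 163 peaks.

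Several long chains lay directly at the edge of such a gap. Of the 9 chains of 10 or more peaks, 4 bordered a gap over 100 kb on 1 side: the chain from 18133429 (144 kb before it), that from 3566134 (101 kb before it), that to 7604257 (182 kb after it) and that to 20944437 (208 kb after it). Over all X chains 78 of 628 (12.4%) did so, with 2 of 54 among chains of 5 to 9 peaks, 27 of 238 among chains of 2 to 4 and 45 of 327 among single peaks. On the 4 large autosome arms 6 of 123 long chains (4.88%) bordered such a gap, against 190 of all 3447 chains (5.51%). This arrangement was looked for after the coordinates had been seen, rests on 9 chains, and was not tested.

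Along the chromosome, the number of peaks per 1 Mb varied 5.23-fold over the 22 complete bins, from 22 to 115 with a median of 59.5. The fullest bin was 1 to 2 Mb with 115 peaks, which covered 82.3 kb, followed by 13 to 14 Mb with 93 and 17 to 18 Mb with 92. The emptiest were 21 to 22 Mb with 22 peaks, 20 to 21 Mb with 33 and 14 to 15 Mb with 43. In the bin 21 to 22 Mb, 14 of the 20 windows of 50 kb were empty and peaks covered 7.61 kb.

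Fuller bins tended to hold more peaks above 100 (Spearman's rho = 0.692 over the 22 complete bins, in which the high peaks are also part of the number). The fullest bin had 8, which was 6.96% of its peaks, against 7.23% over all X peaks. The 3 emptiest, with 22 to 43 peaks, had 0. Some bins departed from the tendency for fuller bins to hold more. The bin 17 to 18 Mb had 92 peaks with 2 scores above 100, and 6 to 7 Mb had 79 peaks with 1. The bin 3 to 4 Mb had fewer peaks, 73, and yet 13 scores above 100, the most of any bin, and a median of 27.88, the highest of the 22. The bins 2 to 3 Mb and 7 to 8 Mb had 12 and 10 such scores among 79 and 64 peaks. No score exceeded 100 in 4 complete bins, the first megabase (51 peaks), 14 to 15 Mb, 20 to 21 Mb and 21 to 22 Mb. In the first 8 Mb, 9.47% of 581 peaks scored above 100, against 5.64% of the 816 peaks beyond, while the median score was 19.85 in both. Peaks wider than 2 kb numbered 25 of the 581 in those 8 Mb and 10 of the 816 beyond. The first 8 Mb held 41.6% of the X peaks and 35.9% of the length. The position of 8 Mb was chosen after the profile had been seen.

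**Figure D5:**
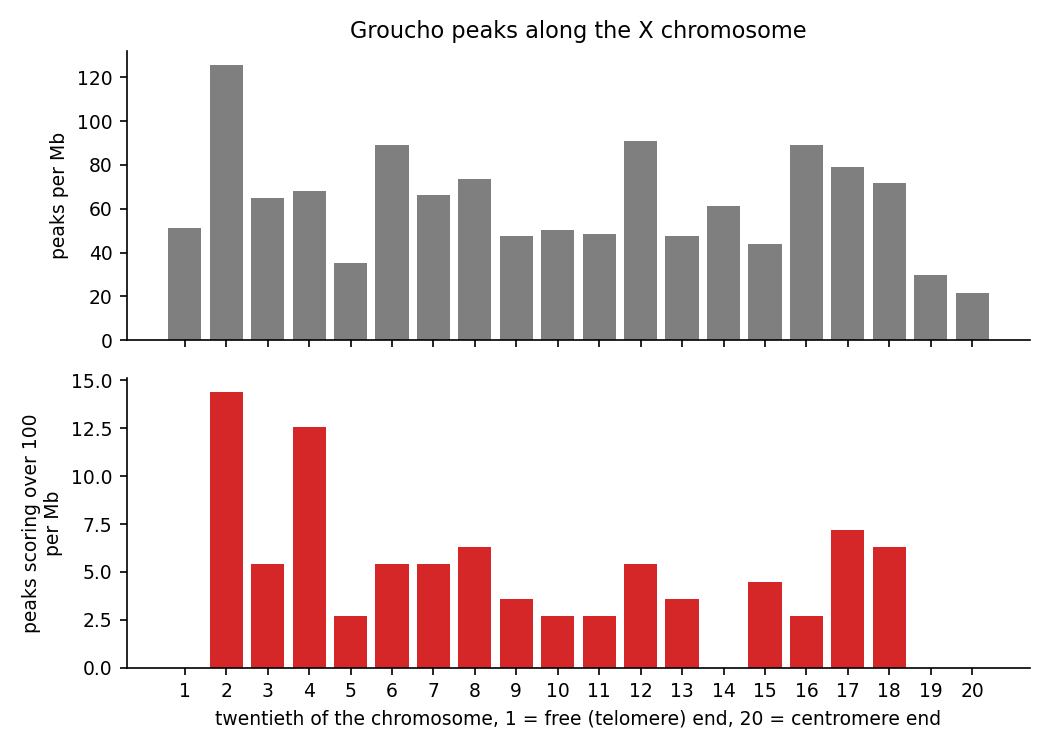
Peaks per Mb (upper bars) and peaks scoring above 100 per Mb (lower bars) in 20 equal parts of the X, numbered from the telomere end to the last peak near the centromere. The second part is highest in both, at 126 and 14.4 per Mb; parts 1, 14, 19 and 20 have no peak above 100.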

How the data were processed

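Chromatin of white prepupae was profiled in 2 Groucho ChIP and 2 input libraries, grouped by their titles. The deposited data are 1 peak list for the series. FlyBase release 5 is the build per the file headers, and each row names MACS as its source. BWA, MACS2 and CASAVA (1.7.0.2 and 1.7.0.3) are listed in the submitters' processing notes, with the build BDGP5. How they were combined, with which peak threshold and whether on pooled libraries, is not given in the sources used here. Scores are those of the authors' caller, as deposited, and their scale is unstated.

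From the list, gaps were taken edge to edge, chains joined peaks less than 5 kb apart, and windows of 50 kb and bins of 1 Mb started at base 1 and took a peak by its centre. The length of an arm was the end of its last peak. No peaks on X overlapped (0 pairs). Sites named are the 10 highest and 10 widest peaks, the 10 densest windows, the chains of 10 or more peaks, the 10 longest gaps and the 3 fullest and 3 emptiest bins. A few others were named after their values were seen, as were comparisons with gap edges and of the first 8 Mb. The set of peaks and these definitions were chosen with earlier results of these data known. No test was made, because the list has no value per library. The gene table at hand is on release 6. It was used only for the chromosome of genes named as background, and coordinates were not carried over. Counting steps were tested on simulated lists with planted chains and gaps. Calculations used Python 3.11.15, numpy 2.4.6, scipy 1.17.1, pandas 2.3.3 and matplotlib 3.10.9.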

Additional observations from a re-analysis of the deposited data

How the results depend on the processing

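A count or the longest gap was taken as close to the value given when within 1.5 times of it. A median or share was taken as close when inside the 95% binomial interval of the value given, which is narrower. That interval treats peaks as independent, which calls of 1 list need not be, so it serves only as a yardstick. By these measures, of 23 other settings over 10 results, 8 stayed close and 15 moved. Many moved by construction, since fewer or joined peaks lie farther apart. With only peaks at or above the list's median score, X had 761 peaks with a median width of 622 bp, a median centre distance of 7980 bp, 2 long chains, 54 gaps over 100 kb, a longest gap of 506 kb and 23.0% of peaks without another less than 10 kb away. Joining peaks less than 1 kb apart gave 993 peaks, a median width of 533 bp, a distance of 8765 bp and at most 9 peaks in a 50 kb window. Joining at 5 kb left 628 peaks. Peaks wider than the list's median had a median score of 37.6. Chains of 10 or more peaks numbered 20 with gaps under 10 kb. Peaks without a neighbour made up 23.4% at 5 kb and 5.58% at 20 kb. Gaps of at least 75 kb numbered 73. The fullest 1 Mb bin held 8.23% of the X peaks, and 9.95% of the bases that X peaks covered. The densest window stayed the same with the higher-scoring peaks and after joining at 1 kb, and was 18125001 to 18175000, with 20 peaks, when windows were shifted by 25 kb. The largest chain was that from 3566134 with gaps under 3 kb. No paired analysis was possible because the list holds no value per library, and leaving out a library was impossible for the same reason. Depth is unknown, so weak sites may be missing from the list.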
